A study of Mus musculus with 17 samples.

Results

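Genes for 39 plasma proteins and apolipoproteins that hepatocytes secrete were followed in Kupffer cells (KCs), macrophages that live in the liver sinusoids, sorted from mice with and without liver tumours and from mice lacking *Id3* in KCs. The members were chosen by symbol for what they encode, and they make up 39 of the 25124 genes in each of 3 expression tables. Of these, 27 encode carriers, hormone precursors, apolipoproteins, protease inhibitors, coagulation factors and terminal complement components, and 12 encode acute-phase proteins. RNA-seq was performed on TIM4+CD206+ KCs and on TIM4+CD206 high KCs, subsets sorted by the mannose receptor CD206, each from untreated tumour-free mice (n = 3) and from mice 2 weeks after KPC cells, a pancreatic tumour line, were injected into the portal vein (n = 3). A separate table held KCs of untreated *Id3* f/f mice (n = 3), which carry loxP sites around *Id3*, and of untreated mice in which *Clec4f* drives Cre recombinase in KCs on this background (*Clec4f* cre*Id3* f/f, n = 2). The labels give no age and do not name the mouse of each replicate. The study describes replicates as biological and, for the *Id3* comparison, counts mice, with littermates as controls. The p-values measure the spread between these samples.

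Hepatocytes release albumin, transferrin, transthyretin, apolipoproteins and most clotting factors into the blood, and their genes are transcribed under HNF1, HNF4, forkhead and C/EBP factors. During inflammation, interleukin 6 and interleukin 1 raise acute-phase genes such as those for serum amyloid A, haptoglobin, orosomucoid and fibrinogen, while albumin and transthyretin are known as negative acute-phase proteins. KCs are a source of these cytokines, and *Saa3* is also transcribed by macrophages. The comparisons ask whether the acute-phase genes moved as the other members did with tumour in each KC subset, and with loss of *Id3*.

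The tables held log2 values with the features of a regularised log transformation, normalised separately in each table. Such a transformation draws the differences of low genes towards 0, so changes of low genes would be understated. Sequencing depth cannot be read from them: the linear values sum to between 21823885 and 39683810 per sample, but these are normalised totals. All 17 KC markers were tested in each table, and *C1qb* was the most abundant of them for its length, at a log2 mean of 18.94 for TIM4+CD206+, 17.48 for TIM4+CD206 high and 18.19 for *Id3*-table samples. Among the members, *Trf* had the highest linear value per kilobase of transcript in the control samples, at 4.06e+04 for TIM4+CD206+, 2.57e+04 for TIM4+CD206 high and 1.58e+04 for *Id3* f/f samples. *Apoa2* followed, at 6.68e+03, 4.57e+03 and 7.13e+03. *Alb* stood at 3.29e+03, 4.51e+03 and 3.95e+03 in the same order.

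In TIM4+CD206+ KCs, 16 of the 26 carrier and coagulation genes tested fell with tumour and none rose, while limma called none of the 12 acute-phase genes, of which 8 had an unadjusted p under 0.05, against 17.2% of all genes. With samples paired by replicate number as a block, 25 members fell and 4 rose, and 8 of these 29 were acute-phase genes, 4 lower and 4 higher, against 3.09% lower and 4.66% higher of all genes. *F9* lay at 3.06 to 3.43 in these samples and was not tested. Without the block, of 13233 genes tested, 132 (0.998%) fell and 337 (2.55%) rose, and the median change was 0.02. This balance turned without tumour-free replicate 2, when 595 fell and 427 rose. The tumour-bearing samples lay wholly below the tumour-free ones for 23 of the 26 carrier and coagulation genes and for 4 of the 12 acute-phase genes, against 10.5% of all genes. They lay wholly above them for 0 and 3 genes, against 12.9%. The median change was −1.34 for the carrier and coagulation genes, all 26 of them negative, and 0.02 for the acute-phase genes, 6 negative and 6 positive. With median centring the acute-phase median was −0.05 and that of all genes −0.05. Leaving out tumour-free replicates 1, 2 and 3 gave acute-phase medians of −0.02, −0.25 and 0.34, and leaving out tumour-bearing replicates 1, 2 and 3 gave −0.13, 0.15 and 0.05. These are bulk values, in which fewer cells of a type and less RNA per cell cannot be told apart.

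Hepatocyte metabolic markers moved beside them in TIM4+CD206+ KCs: of 28 tested, 14 fell and 1 rose, with a median of −1.57, and *G6pc* and *Cyp7a1* were too low to test. Their summed linear values were 58739, 32604 and 49582 in the tumour-free and 45940, 38538 and 34061 in the tumour-bearing samples, and none was at 0 throughout. *Ces3a* fell by 2.36 (adjusted p 0.0127), a call lost without tumour-free replicate 1 (0.0574) or tumour-bearing replicates 1 (0.0664) or 2 (0.0564), with a range of 0.00174 to 0.0664 over 12 alternatives. With replicate number as a block, 25 of these markers fell and 1 rose. The count of fallen markers was 5, 23 and 7 without tumour-free replicates 1, 2 and 3, and 6, 5 and 8 without tumour-bearing replicates 1, 2 and 3. Their part in the result was not tested.

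Among the carriers of TIM4+CD206+ KCs, values are given for replicates 1, 2 and 3 without and then with tumour. *Alb* went from 12.85, 12.80 and 13.08 to 10.48, 10.16 and 11.23 and fell by 2.29 (SE 0.27, adjusted p 0.00281, 4.89-fold). *Ttr* went from 10.81, 9.85 and 10.46 to 9.03, 8.81 and 9.34 and fell by 1.32 (SE 0.28, adjusted p 0.0418). Both carriers had all 3 tumour-bearing samples below all 3 tumour-free samples. *Gc* went from 11.45, 11.09 and 11.36 to 10.00, 9.44 and 10.13 and fell by 1.44 (SE 0.22, adjusted p 0.0113). *Ahsg* went from 12.21, 11.44 and 12.50 to 10.67, 10.14 and 10.66 and fell by 1.56 (SE 0.29, adjusted p 0.0255). *Agt* went from 7.74, 8.27 and 8.31 to 6.99, 6.81 and 6.33 and fell by 1.40 (SE 0.29, adjusted p 0.0371). These 3 genes likewise had no overlap between the groups. *Trf*, at 17.17, 17.13 and 16.81 without tumour and 16.80, 16.56 and 16.37 with it, differed by −0.47 (SE 0.19, adjusted p 0.251). No call was made for *Rbp4* (−0.74, adjusted p 0.473), *Ambp* (−0.74, 0.147) or *Fetub* (−0.91, 0.216). *Ambp* fell with the block (0.0311, range 0.0311 to 0.366). *Ttr* had adjusted p from 0.00301 to 0.156 over 12 alternatives and lost its call without tumour-free replicates 1 (0.132) or 3 (0.147), or without tumour-bearing replicates 1 (0.156), 2 (0.152) or 3 (0.0927), or with no filter on low values (0.063), or without the mean-variance trend (0.0528), or with quantile normalisation (0.0559). *Gc* had adjusted p from 0.000454 to 0.0603 over 12 alternatives and lost its call without tumour-free replicates 1 (0.0525) or 3 (0.0603). *Ahsg* had adjusted p from 0.000261 to 0.101 over 12 alternatives and lost its call without tumour-free replicates 1 (0.0973) or 3 (0.0927), or without tumour-bearing replicates 1 (0.0885), 2 (0.101) or 3 (0.082). *Agt* had adjusted p from 0.0137 to 0.138 over 12 alternatives and lost its call without tumour-free replicates 1 (0.0551) or 3 (0.134), or without tumour-bearing replicates 1 (0.0858), 2 (0.109) or 3 (0.138).

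Of 5 apolipoprotein genes 2 fell, and the median of the 5 was −1.29. *Apoa1* went from 12.74, 12.62 and 13.03 to 11.56, 11.27 and 11.61 and fell by 1.32 (SE 0.18, adjusted p 0.00554). *Apoa2* went from 12.37, 11.19 and 11.86 to 10.55, 10.11 and 10.66 and fell by 1.37 (SE 0.30, adjusted p 0.0493). Neither overlapped between the groups. *Apoc3* (−1.25, adjusted p 0.103), *Apoh* (−1.29, 0.0794) and *Apob* (−0.44, 0.605) did not pass. With the block, adjusted p was 0.0236 for *Apoc3* (range 0.0236 to 0.285) and 0.0127 for *Apoh* (range 0.0127 to 0.25), both lower with tumour. *Apoc3* also passed without tumour-free replicate 2 (0.0411). *Apoa2* had adjusted p from 0.00109 to 0.172 over 12 alternatives and lost its call without tumour-free replicates 1 (0.127) or 3 (0.16), or without tumour-bearing replicates 1 (0.151), 2 (0.172) or 3 (0.119), or with no filter on low values (0.0788), or with the stricter filter (0.0509), or without the mean-variance trend (0.0695).

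All 4 protease inhibitor genes fell, with a median of −1.72 and no overlap between groups. *Serpina1a* went from 10.29, 9.76 and 10.68 to 8.86, 8.43 and 8.67 and fell by 1.59 (SE 0.27, adjusted p 0.0169). *Serpina1b* went from 11.02, 10.77 and 11.72 to 9.69, 9.09 and 9.81 and fell by 1.64 (SE 0.29, adjusted p 0.0218). *Serpina1a* shares 42.8% of its 100-base stretches with *Serpina1b*, so these values are not independent. *Serpina3k* went from 12.46, 12.24 and 11.82 to 9.93, 10.19 and 10.99 and fell by 1.81 (SE 0.29, adjusted p 0.0141). *Serpinc1* went from 10.33, 10.09 and 10.52 to 8.71, 7.84 and 9.01 and fell by 1.80 (SE 0.31, adjusted p 0.0192). *Serpina1a* had adjusted p from 0.000804 to 0.0731 over 12 alternatives and lost its call without tumour-free replicates 1 (0.0676) or 3 (0.0632), or without tumour-bearing replicates 1 (0.053), 2 (0.0731) or 3 (0.0724). *Serpina1b* had adjusted p from 0.000281 to 0.0809 over 12 alternatives and lost its call without tumour-free replicates 1 (0.0637) or 3 (0.0682), or without tumour-bearing replicates 1 (0.0784), 2 (0.0809) or 3 (0.0556). *Serpina3k* had adjusted p from 0.00183 to 0.0669 over 12 alternatives and lost its call without tumour-free replicate 1 (0.0604), or without tumour-bearing replicates 1 (0.0654) or 2 (0.0669). *Serpinc1* had adjusted p from 0.000398 to 0.0872 over 12 alternatives and lost its call without tumour-free replicates 1 (0.0717) or 3 (0.0872), or without tumour-bearing replicate 1 (0.0664).

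Of 6 coagulation, fibrinolysis and adhesion genes tested, 4 fell, and the median was −1.51. *F2* went from 9.90, 9.83 and 10.25 to 8.39, 8.40 and 8.39 and fell by 1.60 (SE 0.20, adjusted p 0.00379, 3.04-fold). *Kng1* went from 9.28, 9.57 and 9.97 to 8.61, 8.09 and 8.44 and fell by 1.22 (SE 0.25, adjusted p 0.0393). In both, the groups did not overlap. *Hrg* went from 7.0, 7.04 and 7.73 to 5.73, 5.58 and 5.33 and fell by 1.71 (SE 0.28, adjusted p 0.0144). *Vtn* went from 11.12, 10.61 and 11.52 to 9.55, 9.28 and 9.93 and fell by 1.49 (SE 0.27, adjusted p 0.0233). The same held for these genes. *Plg* (−1.52, adjusted p 0.062) and *Proc* (−1.19, 0.0725) were not called. With the block, adjusted p was 0.00558 for *Plg* (range 0.00558 to 0.199) and 0.0221 for *Proc* (range 0.0221 to 0.23), both lower with tumour, and *Plg* also passed without tumour-free replicate 2 (0.0395) or with median centring (0.0405). *Kng1* had adjusted p from 0.00927 to 0.137 over 12 alternatives and lost its call without tumour-free replicates 1 (0.056) or 3 (0.136), or without tumour-bearing replicates 1 (0.0998), 2 (0.137) or 3 (0.127), or with no filter on low values (0.0531). *Hrg* had adjusted p from 0.00421 to 0.073 over 12 alternatives and lost its call without tumour-bearing replicates 2 (0.0598) or 3 (0.073). *Vtn* had adjusted p from 0.000348 to 0.107 over 12 alternatives and lost its call without tumour-free replicates 1 (0.0847) or 3 (0.0847), or without tumour-bearing replicates 1 (0.107) or 2 (0.0933). Of the terminal complement genes 1 of 2 fell (median −0.96). *C8a* went from 5.88, 5.80 and 5.57 to 4.81, 4.52 and 4.69 and fell by 1.08 (SE 0.19, adjusted p 0.0209). *C9* differed by −0.84 (adjusted p 0.0794). *C8a* had adjusted p from 0.0121 to 0.0899 over 11 alternatives and lost its call without tumour-free replicate 1 (0.0794), or without tumour-bearing replicates 1 (0.0586), 2 (0.0899) or 3 (0.082).

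The acute-phase genes of TIM4+CD206+ KCs ran in both directions. Serum amyloid A genes had a median of 1.76. *Saa1* was at 6.80, 5.94 and 7.94 without tumour and 9.35, 8.53 and 8.07 with it, a difference of 1.76 (SE 0.52, adjusted p 0.125). *Saa2* was at 6.08, 5.40 and 7.05 without tumour and 8.86, 8.09 and 7.32 with it, a difference of 1.91 (SE 0.50, adjusted p 0.0863). For both, all 3 tumour-bearing samples lay above the tumour-free samples. *Saa3* was at 12.13, 8.86 and 9.67 without tumour and 13.68, 10.23 and 11.80 with it, a difference of 1.69 (SE 0.98, adjusted p 0.45). Its groups overlapped. *Orm2* read 5.31, 4.99 and 5.65 without and 7.08, 6.35 and 6.24 with tumour, again with no overlap, and differed by 1.24 (SE 0.30, adjusted p 0.0656). *Orm1* differed by 0.35 (adjusted p 0.583). *Hp* was at 11.97, 11.90 and 12.81 without tumour and 13.28, 12.98 and 12.80 with it, a difference of 0.80 (SE 0.26, adjusted p 0.166). *Hpx* was at 12.36, 11.74 and 13.38 without tumour and 12.38, 11.83 and 12.34 with it, a difference of −0.31 (SE 0.38, adjusted p 0.766). Without tumour-free replicate 3 the difference of *Hpx* was 0.14.

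No fibrinogen gene and no heavy chain of inter-alpha-trypsin inhibitor passed without the block, and their median changes were −1.16 and −1.10. *Fga* differed by −1.23 (SE 0.29, adjusted p 0.0591), *Fgb* by −1.16 (SE 0.26, adjusted p 0.0542) and *Fgg* by −0.83 (SE 0.31, adjusted p 0.217). In all 3 the groups did not overlap. *Itih3* differed by −0.87 (adjusted p 0.291) and *Itih4*, without overlap, by −1.33 (0.136). Without tumour-free replicate 2, 4 acute-phase genes passed below 0.05, all lower, against 4.5% of all genes lower: *Fga* at 0.0248, *Fgb* at 0.0191, *Itih3* at 0.0297 and *Itih4* at 0.0375. For *Itih3* the range over 12 alternatives was 0.0297 to 0.576. Pairing samples by replicate number, which the labels do not state, called 8 acute-phase genes. Same-numbered samples correlated at 0.35, 0.56 and 0.15 after removal of group means. Higher with tumour were 4 of them, with adjusted p 0.0287 for *Saa1* (range 0.0287 to 0.359), 0.0216 for *Saa2* (range 0.0216 to 0.264), 0.000273 for *Saa3* (range 0.000273 to 0.799) and 0.0208 for *Orm2* (range 0.0208 to 0.184). Lower were the other 4, at 0.00525 for *Fga* (range 0.00525 to 0.194), 0.00617 for *Fgb* (range 0.00617 to 0.179), 0.0482 for *Fgg* (range 0.0482 to 0.48) and 0.00436 for *Itih4* (range 0.00436 to 0.341). The block called 29 members (25 lower, 4 higher), the 16 called without it among them, and 1026 genes in all.

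Single samples moved these counts in TIM4+CD206+ KCs. The 16 members called became 4, 22 and 6 without tumour-free replicates 1, 2 and 3, and 5, 5 and 7 without tumour-bearing replicates 1, 2 and 3. Calls over all genes, 469 with the full set, were 243, 1022 and 259 and then 246, 231 and 261 in the same order, of which 32, 595 and 41 and then 33, 28 and 39 were lower. *Alb* (adjusted p 2.55e-05 to 0.0244), *Apoa1* (0.000398 to 0.0357) and *F2* (0.000626 to 0.0281) kept their calls in all 12 alternatives.

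**Figure D1:**
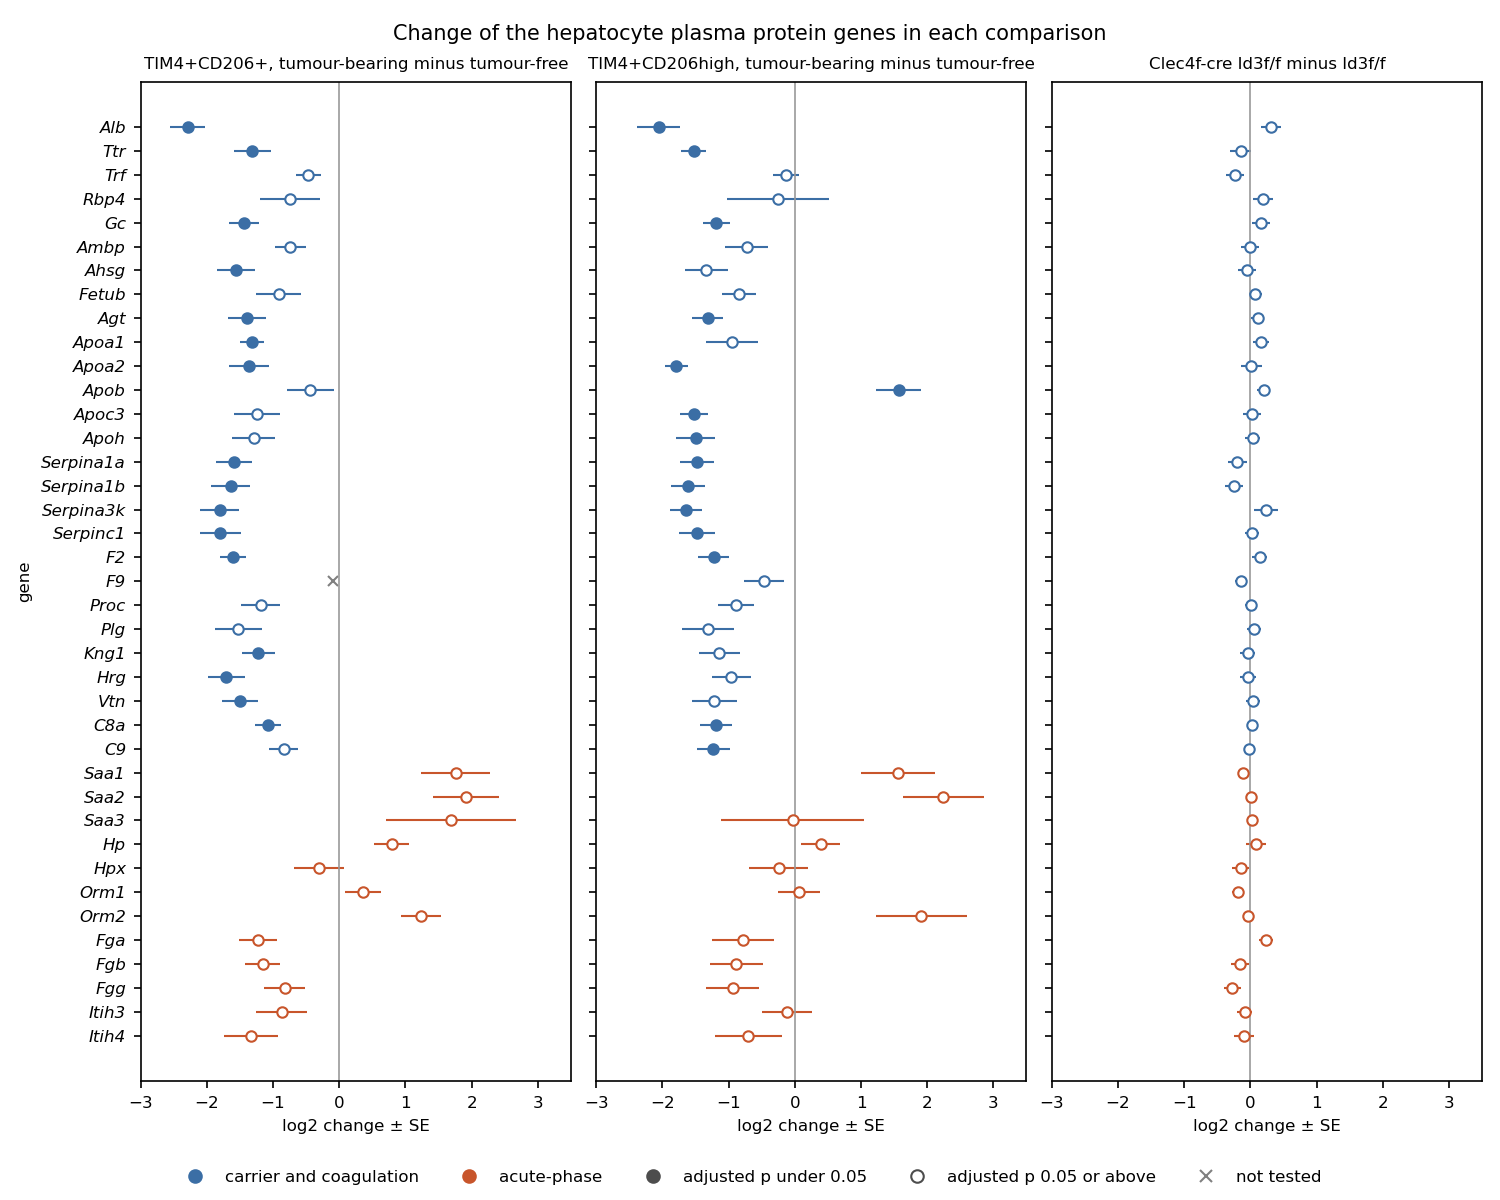
Log2 change (x axis) of each of the 39 genes (y axis) with tumour in TIM4+CD206+ KCs (left) and TIM4+CD206 high KCs (middle), n = 3 per group, and in *Clec4f* cre*Id3* f/f (n = 2) against *Id3* f/f KCs (n = 3, right), with bars for the SE. Filled points have a limma adjusted p under 0.05 without the replicate block, blue marks carrier and coagulation genes and orange acute-phase genes; filled blue points number 16, 15 and 0 in the 3 panels, no orange point is filled, and a cross marks *F9*, which was not tested.

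Of 27 carrier and coagulation genes, 14 fell with tumour in TIM4+CD206 high KCs and 1 rose, and limma called none of the 12 acute-phase genes, with 3 at an unadjusted p under 0.05, against 21.1% of all genes. Of 14561 genes tested, 295 (2.03%) fell and 758 (5.21%) rose, with a median change of 0.03. With quantile normalisation 518 fell and 664 rose, so that rises made up 56.2% of the calls in place of 72%. No overlap between groups was seen for 21 carrier and coagulation genes lower and 1 higher, and for 2 acute-phase genes lower and 1 higher, against 15.2% lower and 15.6% higher of all genes. The medians were −1.23 for carrier and coagulation genes (26 negative, 1 positive) and −0.08 for acute-phase genes (7 negative, 5 positive). Leaving out tumour-free replicates 1, 2 and 3 put the acute-phase median at −0.22, −0.25 and 0.29, and leaving out tumour-bearing replicates 1, 2 and 3 at −0.21, −0.05 and −0.09. Median centring shifted the median of all genes by −0.16 and quantile normalisation by −0.14. Relative to the median of all genes, the carrier and coagulation median was −1.25 as deposited, −1.25 centred and −1.28 quantile normalised, and the acute-phase median −0.10, −0.10 and −0.09.

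Hepatocyte metabolic markers fell here in 22 of 30 cases and rose in 1, with a median of −1.56 and none at 0 throughout. Their linear sums were 41516, 57141 and 49268 without tumour and 31176, 41281 and 27297 with it. *Cyp2c29* fell by 3.05 (adjusted p 0.00242) and *Fabp1* by 2.90 (adjusted p 0.00446). Their part in the result was not tested. Metabolic markers called higher numbered 0, 1 and 1 without tumour-free replicates 1, 2 and 3, and 1, 0 and 0 without tumour-bearing replicates 1, 2 and 3.

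Among the carriers of TIM4+CD206 high KCs, 4 genes fell, each without overlap. *Alb* went from 13.24, 12.88 and 13.98 to 11.42, 10.90 and 11.61 and fell by 2.06 (SE 0.32, adjusted p 0.00891, 4.16-fold). *Ttr* went from 9.89, 9.93 and 10.02 to 8.49, 8.20 and 8.58 and fell by 1.53 (SE 0.19, adjusted p 0.00294). Both kept their calls in all 12 alternatives, with adjusted p of 0.00238 to 0.0456 for *Alb* and 0.00222 to 0.0241 for *Ttr*. *Gc* went from 11.80, 11.45 and 12.08 to 10.75, 10.43 and 10.59 and fell by 1.19 (SE 0.21, adjusted p 0.0146). *Agt* went from 8.36, 8.07 and 8.68 to 6.95, 7.0 and 7.20 and fell by 1.32 (SE 0.23, adjusted p 0.0153). *Trf*, at 16.16, 16.66 and 16.33 without tumour and 16.42, 16.22 and 16.12 with it, differed by −0.13 (SE 0.20, adjusted p 0.717). Without tumour-free replicate 2 *Trf* differed by 0.01 and *Rbp4* by 0.60. *Ahsg* (−1.33, adjusted p 0.0562), *Fetub* (−0.84, 0.11), *Ambp* (−0.73, 0.254) and *Rbp4* (−0.25, 0.863) were not called. Without tumour-free replicate 2, *Ahsg* (0.00391), *Ambp* (0.0276) and *Fetub* (0.024) passed, and *Ahsg* did so with median centring (0.0443) and quantile normalisation (0.039). The ranges over 12 alternatives were 0.00391 to 0.217, 0.0276 to 0.521 and 0.024 to 0.368. *Gc* had adjusted p from 0.00327 to 0.0879 over 12 alternatives and lost its call without tumour-free replicate 1 (0.0671), or without tumour-bearing replicates 1 (0.0557), 2 (0.0879) or 3 (0.0723). *Agt* had adjusted p from 0.00443 to 0.0979 over 12 alternatives and lost its call without tumour-free replicate 1 (0.0598), or without tumour-bearing replicates 1 (0.0979), 2 (0.0909) or 3 (0.06).

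Apolipoprotein genes split in direction. *Apoa2* went from 11.16, 11.49 and 11.14 to 9.56, 9.37 and 9.49 and fell by 1.79 (SE 0.17, adjusted p 0.001, 3.46-fold). *Apoc3* went from 9.14, 9.13 and 8.73 to 7.63, 7.35 and 7.46 and fell by 1.52 (SE 0.21, adjusted p 0.0054). These calls held in all 12 alternatives, at 0.000368 to 0.0106 and 0.00203 to 0.0425. *Apoh* went from 9.09, 8.81 and 9.81 to 7.65, 7.57 and 8.00 and fell by 1.50 (SE 0.30, adjusted p 0.0258). *Apob* alone among the members rose, from 9.99, 8.99 and 10.32 to 11.24, 11.36 and 11.40, by 1.57 (SE 0.33, adjusted p 0.034, 2.96-fold), with all 3 tumour-bearing samples above the tumour-free samples. *Apoa1* was at 12.20, 12.11 and 10.67 without and 10.74, 10.60 and 10.78 with tumour, its groups overlapped, and it differed by −0.95 (SE 0.40, adjusted p 0.23). Without tumour-free replicate 3 it fell by 1.44 (0.00154, range over 12 alternatives 0.00154 to 0.49). *Apoh* had adjusted p from 0.00649 to 0.13 over 12 alternatives and lost its call without tumour-free replicate 1 (0.0835), or without tumour-bearing replicates 1 (0.124), 2 (0.13) or 3 (0.069). *Apob* had adjusted p from 0.00442 to 0.14 over 12 alternatives and lost its call without tumour-free replicate 1 (0.0948), or without tumour-bearing replicates 1 (0.12), 2 (0.14) or 3 (0.128), or with median centring (0.0594).

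All 4 protease inhibitor genes fell in this subset too, without overlap. *Serpina1a* went from 9.40, 9.18 and 9.97 to 8.04, 7.84 and 8.23 and fell by 1.48 (SE 0.26, adjusted p 0.0148). *Serpina1b* went from 9.99, 10.05 and 10.72 to 8.70, 8.37 and 8.86 and fell by 1.61 (SE 0.26, adjusted p 0.0104). Their shared stretches apply here as well. *Serpina3k* went from 11.99, 11.98 and 11.47 to 9.85, 10.10 and 10.56 and fell by 1.65 (SE 0.24, adjusted p 0.00738). *Serpinc1* went from 9.83, 9.73 and 10.45 to 8.54, 8.22 and 8.83 and fell by 1.48 (SE 0.27, adjusted p 0.0177). *Serpina3k* kept its call in all 12 alternatives (0.00169 to 0.0453). *Serpina1a* had adjusted p from 0.00477 to 0.0868 over 12 alternatives and lost its call without tumour-free replicate 1 (0.0551), or without tumour-bearing replicates 1 (0.0797), 2 (0.0868) or 3 (0.0506). *Serpina1b* had adjusted p from 0.00627 to 0.0614 over 12 alternatives and lost its call without tumour-bearing replicates 1 (0.0529) or 2 (0.0614). *Serpinc1* had adjusted p from 0.0076 to 0.0924 over 12 alternatives and lost its call without tumour-free replicate 1 (0.0585), or without tumour-bearing replicates 1 (0.0871) or 2 (0.0924).

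Of 7 coagulation, fibrinolysis and adhesion genes, *F2* alone was called. *F2* went from 9.74, 9.62 and 10.18 to 8.70, 8.35 and 8.80 and fell by 1.23 (SE 0.23, adjusted p 0.0205). The others were *Vtn* (−1.22, adjusted p 0.0903), *Plg* (−1.31, 0.107), *Kng1* (−1.14, 0.0834), *Hrg* (−0.96, 0.109), *Proc* (−0.89, 0.117) and *F9* (−0.47, 0.408). *Vtn* passed without tumour-free replicate 2 (0.0143, range over 12 alternatives 0.0143 to 0.305), *Plg* passed without tumour-free replicate 2 (0.0149, range over 12 alternatives 0.0149 to 0.347) and *Kng1* passed without tumour-free replicates 2 (0.0354) or 3 (0.0257, range over 12 alternatives 0.0257 to 0.282). *Proc* passed with quantile normalisation (0.0372, range over 12 alternatives 0.0372 to 0.397). Both terminal complement genes fell. *C8a* went from 7.10, 7.12 and 7.62 to 6.22, 5.82 and 6.23 and fell by 1.19 (SE 0.24, adjusted p 0.0286). *C9* went from 7.33, 7.66 and 7.55 to 6.13, 6.02 and 6.70 and fell by 1.23 (SE 0.25, adjusted p 0.028). *F2* had adjusted p from 0.00817 to 0.112 over 12 alternatives and lost its call without tumour-free replicate 1 (0.0678), or without tumour-bearing replicates 1 (0.0932), 2 (0.112) or 3 (0.0657). *C8a* had adjusted p from 0.0134 to 0.149 over 12 alternatives and lost its call without tumour-free replicate 1 (0.07), or without tumour-bearing replicates 1 (0.112), 2 (0.149) or 3 (0.0968), or with no filter on low values (0.0508), or with the replicate block (0.0537). *C9* had adjusted p from 0.00956 to 0.151 over 12 alternatives and lost its call without tumour-free replicates 1 (0.0703) or 3 (0.0521), or without tumour-bearing replicates 1 (0.151) or 2 (0.147), or with the replicate block (0.057).

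The acute-phase genes of TIM4+CD206 high KCs overlapped between the groups, except *Saa2*, which lay higher with tumour, and *Fgb* and *Fgg*, which lay lower. *Saa1* was at 6.29, 5.67 and 7.81 without tumour and 8.65, 8.24 and 7.55 with it, a difference of 1.56 (SE 0.56, adjusted p 0.173). *Saa2* was at 4.77, 4.54 and 6.62 without tumour and 8.26, 7.59 and 6.81 with it, a difference of 2.25 (SE 0.61, adjusted p 0.0794). In tumour-free replicate 3 both were above the other tumour-free samples. *Saa3* was at 9.64, 12.45 and 7.76 without tumour and 10.62, 9.12 and 10.02 with it, a difference of −0.03 (SE 1.08, adjusted p 0.988). *Saa3* differed by 1.22 without tumour-free replicate 2 and by 0.37 without tumour-bearing replicate 2. *Orm2* lay at 4.07, 3.99 and 6.53 without and 7.26, 6.84 and 6.23 with tumour and differed by 1.91 (SE 0.69, adjusted p 0.17). *Orm1* differed by 0.06 (adjusted p 0.928), by −0.10 with median centring and by −0.14 with quantile normalisation, and by −0.15 to 0.32 when single samples were left out, with a negative sign without tumour-free replicates 1 (−0.04) or 2 (−0.07) or tumour-bearing replicates 1 (−0.15) or 2 (−0.00). *Hp* was at 11.35, 11.71 and 12.47 without tumour and 12.45, 12.25 and 12.01 with it, a difference of 0.39 (SE 0.30, adjusted p 0.467). *Hpx* was at 11.73, 11.05 and 13 without tumour and 11.75, 11.64 and 11.67 with it, a difference of −0.24 (SE 0.45, adjusted p 0.771). Without tumour-free replicate 3 *Hpx* differed by 0.29.

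None of the 3 fibrinogen genes passed in this subset, at −0.78 for *Fga* (adjusted p 0.378), −0.88 for *Fgb* (0.267) and −0.94 for *Fgg* (0.241), the last 2 without overlap. *Itih3* differed by −0.12 (adjusted p 0.868; 0.32 without tumour-free replicate 3) and *Itih4* by −0.70 (0.454). Tumour-free replicate 3 stood apart for these genes, being the highest of its group in 11 of 12 acute-phase genes, against 42.1% of all genes, and exceeding the mean of the other tumour-free samples by a median of 1.55, against 0.65 for the carrier and coagulation genes. Without it, 3 acute-phase genes rose, against 5.78% of all genes: *Saa1* by 2.17 (adjusted p 0.0257, range over 12 alternatives 0.0257 to 0.483), *Saa2* by 2.90 (0.0159, 0.0159 to 0.271) and *Orm2* by 2.75 (0.0081, 0.0081 to 0.466). The same replicate number was the highest control in 11 of 12 acute-phase genes in both other tables, by medians of 0.86 in TIM4+CD206+ and 0.19 in *Id3* f/f KCs, against 28.9% and 36.5% of all genes. For the carrier and coagulation genes, that replicate was the highest control in 57.7% and 63%, by medians of 0.30 and 0.17. The labels do not say that equal numbers mark a shared mouse or sort.

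Members called in TIM4+CD206 high KCs, 15 with the full set, numbered 6, 21 and 19 without tumour-free replicates 1, 2 and 3, and 5, 5 and 8 without tumour-bearing replicates 1, 2 and 3. Calls over all genes, 1053 with the full set, were 649, 3634 and 1276 and then 579, 582 and 637 in that order, of which 126, 1075 and 435 and then 90, 90 and 106 were lower.

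**Figure D2:**
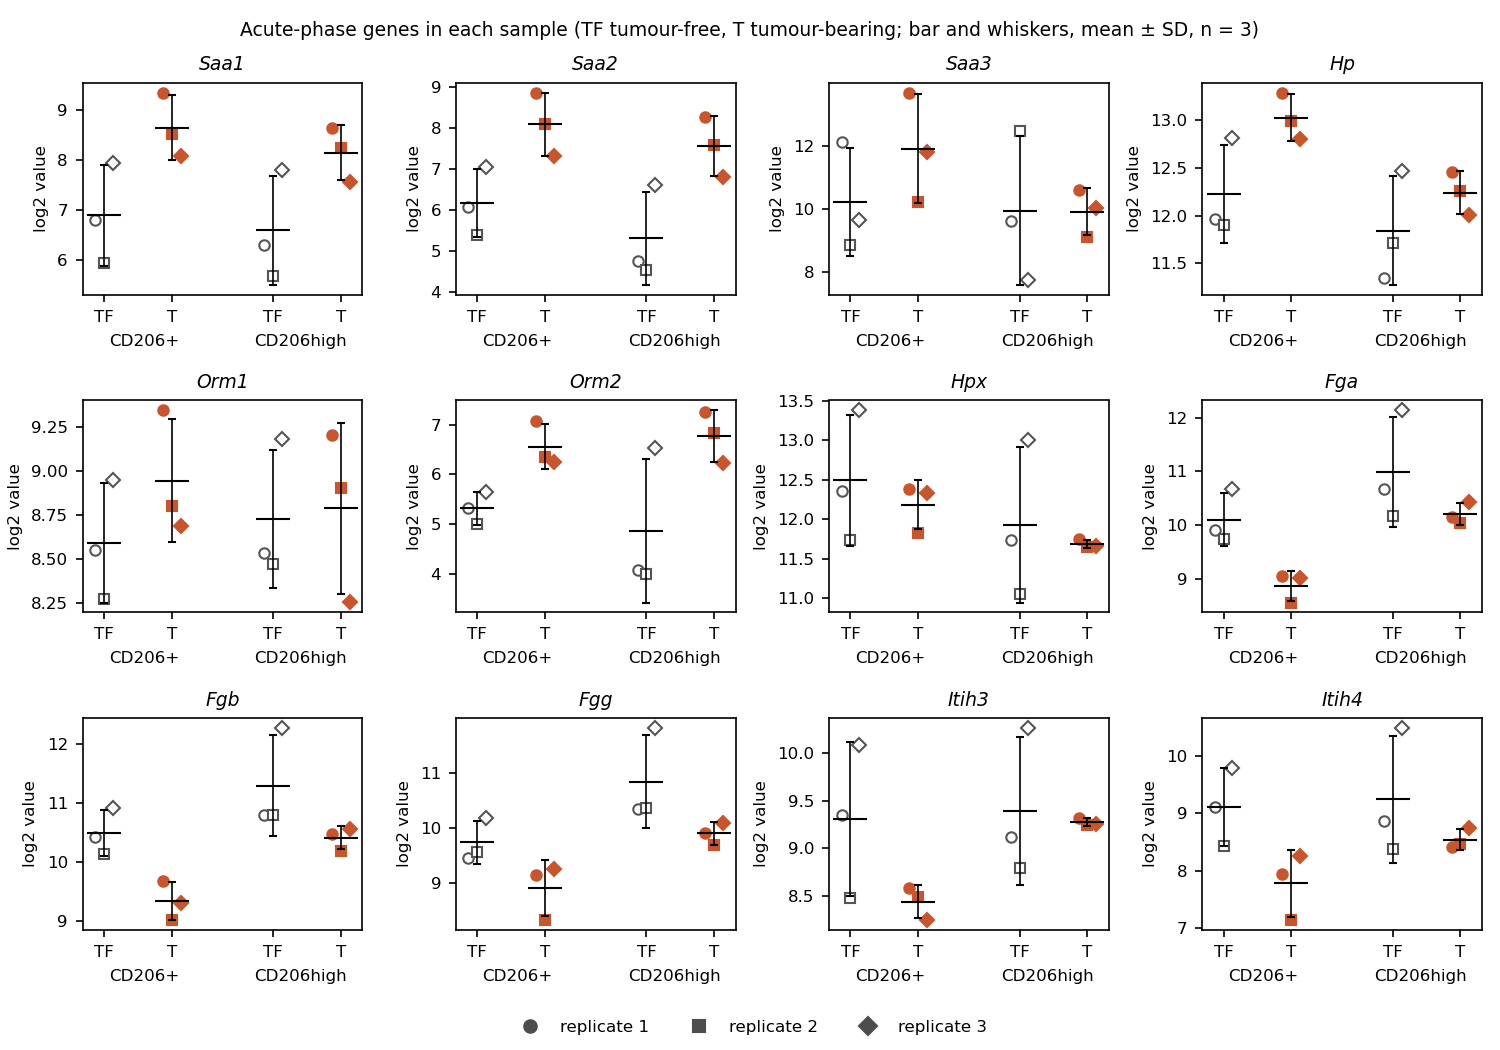
Log2 value (y axis) of each of the 12 acute-phase genes in every TIM4+CD206+ and TIM4+CD206 high sample, tumour-free (TF) and tumour-bearing (T), with a marker shape for each replicate number and a bar and whiskers for the mean ± SD (n = 3). *Saa2* lies at 5.40 to 7.05 without and 7.32 to 8.86 with tumour in TIM4+CD206+ KCs, and tumour-free replicate 3 is the highest of its group in 11 of 12 genes in each subset.

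Without the block, 11 members fell in both subsets, namely *Alb*, *Ttr*, *Gc*, *Agt*, *Apoa2*, *Serpina1a*, *Serpina1b*, *Serpina3k*, *Serpinc1*, *F2* and *C8a*. Of all genes tested, 0.998% fell in TIM4+CD206+ KCs, and 2.03% fell and 5.21% rose in TIM4+CD206 high KCs. The share of all genes called in both subsets was not counted. Called in TIM4+CD206+ KCs alone were 5 genes (*Ahsg*, *Apoa1*, *Hrg*, *Kng1* and *Vtn*), and in TIM4+CD206 high KCs alone 3 lower (*Apoc3*, *Apoh* and *C9*) and 1 higher (*Apob*). Pairing by replicate number changes this list: with the block *Apoc3* (0.0236) and *Apoh* (0.0127) fell in TIM4+CD206+ KCs as well, where it called 29 members. The difference between subsets was not tested. Averaged over tested genes, acute-phase minus carrier and coagulation values were −0.82, −1.25 and −0.45 in tumour-free and 1.10, 0.48 and 0.34 in tumour-bearing TIM4+CD206+ samples. In TIM4+CD206 high KCs they were −0.99, −0.90 and −0.09 without and 0.82, 0.71 and 0.37 with tumour. In each subset every tumour-bearing sample thus lay above every tumour-free sample on this difference. The carrier and coagulation means went from 10.11, 9.87 and 10.20 to 8.77, 8.55 and 8.94 in TIM4+CD206+ KCs and from 9.83, 9.77 and 10.13 to 8.88, 8.64 and 8.94 in TIM4+CD206 high KCs, while the acute-phase means overlapped between groups in both subsets.

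**Figure D3:**
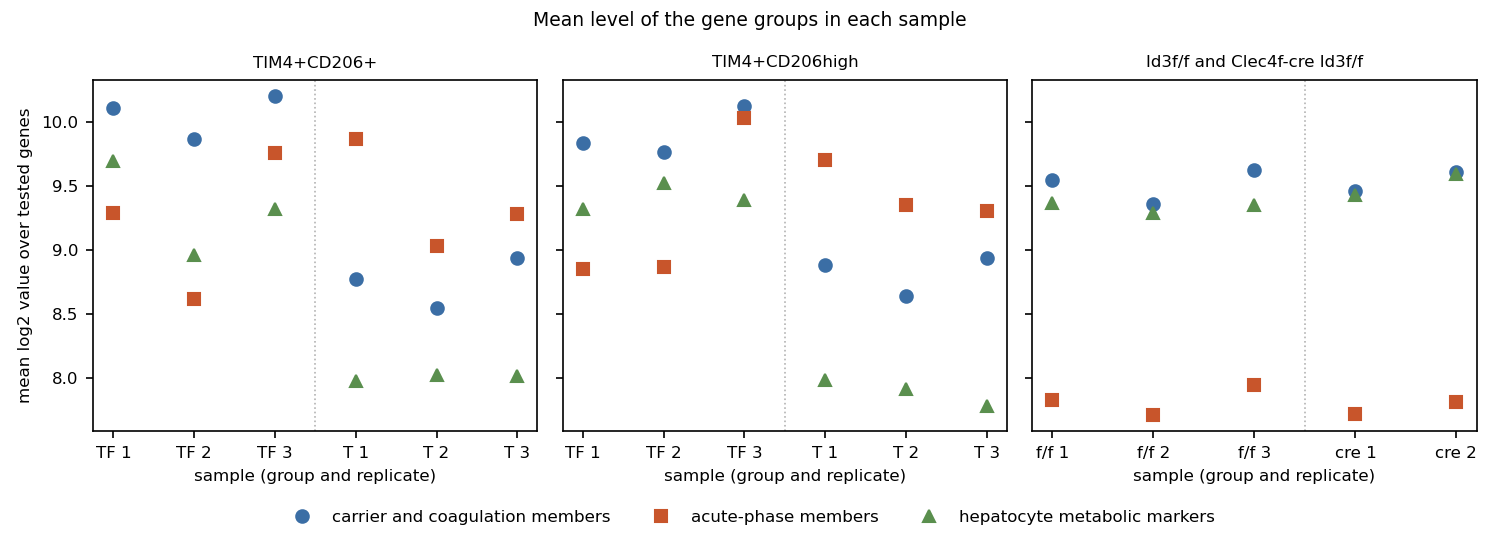
Mean log2 value over tested genes (y axis) of carrier and coagulation genes, acute-phase genes and hepatocyte metabolic markers in each sample (x axis), 1 panel per table. Carrier and coagulation means lie at 9.87 to 10.20 without and 8.55 to 8.94 with tumour in TIM4+CD206+ KCs, and at 9.36 to 9.62 in the 5 samples of the *Id3* table.

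The *Id3* comparison asks what follows from losing this factor in KCs. *Id3* itself was at 12.58, 12.46 and 12.82 in *Id3* f/f KCs and at 9.83 and 9.82 in *Clec4f* cre*Id3* f/f KCs. It fell by 2.80 (SE 0.11, adjusted p 1.4e-06). Of 12833 genes tested, 432 (3.37%) fell and 395 (3.08%) rose, and the median was 0.00. With median centring 550 fell and 328 rose, and rises made up 37.4% of calls in place of 47.8%. With quantile normalisation 373 fell and 408 rose (52.2% rises). The groups also differed in genes of the sex chromosomes: *Xist* was at 6.38, 6.33 and 6.36 and then 9.84 and 9.76 (3.44 higher, adjusted p 5.74e-08), and *Ddx3y* at 9.46, 9.43 and 9.43 and then 7.0 and 7.01 (−2.44, adjusted p 6.45e-07). *Eif2s3y* (−1.82), *Uty* (−1.08) and *Kdm5d* (−0.36) fell too. Effects of genotype and of sex cannot be told apart in this table.

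All 39 members were tested here. None was called by limma, and 1 had an unadjusted p under 0.05, against 23.6% of all genes. Adjusted p ran from 0.196 to 0.992 and the changes from −0.27 to 0.32, with SEs of 0.02 to 0.18. The medians were 0.03 for carrier and coagulation genes (17 positive, 10 negative) and −0.09 for acute-phase genes (8 negative, 4 positive). Leaving out single samples gave −0.03 to 0.11 and −0.15 to 0.00, and median centring −0.0015 and −0.12. A p above the threshold does not show that the groups were alike. *Alb*, at 13.24, 12.85 and 13.44 in *Id3* f/f and 13.40 and 13.59 in *Clec4f* cre*Id3* f/f KCs, differed by 0.32 (SE 0.15, adjusted p 0.24). *Trf*, at 15.47, 15.58 and 15.99 and then 15.44 and 15.46, differed by −0.23 (SE 0.13, adjusted p 0.328). Of the acute-phase genes, *Hp* was at 11.36, 11.03 and 11.57 and then 11.27 and 11.53 (0.08, adjusted p 0.801). *Fgb* was at 10.75, 10.83 and 11.23 and then 10.77 and 10.78 (−0.16, adjusted p 0.538). The smallest adjusted p belonged to *Fga*, at 10.00, 10.00 and 10.20 and then 10.38 and 10.22 (0.24, adjusted p 0.196). The other acute-phase changes were −0.27 for *Fgg*, −0.18 for *Orm1*, −0.15 for *Hpx*, −0.11 for *Saa1*, −0.10 for *Itih4*, −0.09 for *Itih3*, −0.03 for *Orm2*, 0.01 for *Saa2* and 0.03 for *Saa3*, and median centring turned *Saa2* to −0.01. *Saa2* and *Saa3* lay at 3.34 to 3.69. Leaving out *Id3* f/f replicate 3 gave 3 rises, against 6.78% of all genes: *Alb* by 0.45 (0.017), *Fga* by 0.31 (0.0468) and *Serpina3k* by 0.41 (0.0471). Over 11 alternatives their adjusted p ran from 3.12e-05 to 0.714, 0.0403 to 0.729 and 0.00352 to 0.871. Genes called numbered 207, 410 and 1850 without *Id3* f/f replicates 1, 2 and 3 and 17 and 19 without *Clec4f* cre*Id3* f/f replicates 1 and 2, where the lone sample is assumed to vary like the other group. Acute-phase minus carrier and coagulation means were −1.72, −1.65 and −1.68 and then −1.74 and −1.80.

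Changes of the other carrier and coagulation genes in the *Id3* comparison were between −0.25 and 0.24. At the ends were *Serpina1b* (−0.25) and *Serpina3k* (0.24), and 10 of all 27 were negative. Hepatocyte metabolic markers, all 30 tested, had a median of 0.15 with 1 lower and 4 higher, and linear sums of 49212, 46201 and 49886 and then 50440 and 59714. *Fabp1* was the most abundant for its length and none was at 0 throughout. *Cyp3a11* rose by 0.81 (adjusted p 0.0149) and *Tat* by 0.77 (adjusted p 0.0182). *Cyp3a11* lost its call without *Clec4f* cre*Id3* f/f replicates 1 (0.217) or 2 (0.157), and *Tat* without any of *Id3* f/f replicates 1 (0.072) or 2 (0.0638) and *Clec4f* cre*Id3* f/f replicates 1 (0.135) or 2 (0.217); ranges over 11 alternatives were 1.28e-12 to 0.217 and 3.18e-14 to 0.217. Their part in the result was not tested. Metabolic markers called lower numbered 0, 0 and 2 without *Id3* f/f replicates 1, 2 and 3, and 0 and 0 without *Clec4f* cre*Id3* f/f replicates 1 and 2, and higher, in the same order, 1, 2, 6, 0 and 0.

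Genes with related roles were followed beside the members. Of 39 other hepatocyte plasma protein genes tested in TIM4+CD206+ KCs, 8 fell and 2 rose (median −0.86; 18 and 3 with the block). *F7* rose by 2.33 (adjusted p 0.00113) and *Serpina1e* fell by 2.33 (adjusted p 0.000646). Other plasma protein genes called lower numbered 3, 11 and 2 without tumour-free replicates 1, 2 and 3, and 4, 3 and 3 without tumour-bearing replicates 1, 2 and 3. Lower in TIM4+CD206 high KCs were 15 of 41, and none rose (median −0.97, 30 at an unadjusted p under 0.05). *Serpina1e* fell by 1.90 (adjusted p 0.00055), and *F7* differed by 2.20 (0.154; 0.00141 without tumour-free replicate 2, range 0.00141 to 0.411). Other plasma protein genes called lower numbered 7, 24 and 13 without tumour-free replicates 1, 2 and 3, and 4, 5 and 8 without tumour-bearing replicates 1, 2 and 3, and higher, in the same order, 0, 3, 2, 0, 0 and 0. With *Id3* deletion 1 of 40 fell, *Apoc1* (−0.84, adjusted p 0.00618), and 2 rose, *Cp* by 0.96 (adjusted p 0.00467) among them (median 0.01). *Apoc1* and *Cp* lost their calls without *Clec4f* cre*Id3* f/f replicate 1 (0.164 and 0.11) or 2 (0.079 and 0.103), with ranges of 5.08e-17 to 0.164 and 6.09e-12 to 0.11. Other plasma protein genes called lower numbered 1, 1 and 1 without *Id3* f/f replicates 1, 2 and 3, and 0 and 0 without *Clec4f* cre*Id3* f/f replicates 1 and 2, and higher, in the same order, 1, 1, 3, 0 and 0.

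A separate list of 12 other acute-phase genes had none called by limma in TIM4+CD206+ KCs (5 at an unadjusted p under 0.05, median −0.19), and 2 lower and 3 higher with the block. *Lcn2* differed by 1.91 (0.0892; block 0.0089, without tumour-free replicate 3 0.00458, range 0.00458 to 0.272) and *Crp* by −1.27 (0.103; block 0.0121, range 0.0121 to 0.283). Other acute-phase genes called lower numbered 0, 1 and 0 without tumour-free replicates 1, 2 and 3, and 0, 0 and 0 without tumour-bearing replicates 1, 2 and 3, and higher, in the same order, 0, 0, 1, 0, 0 and 0. Of the same genes 1 fell in TIM4+CD206 high KCs (median 0.02). *Lcn2* differed by 1.95 (0.146) and *Serpina3n* by 1.35 (0.132), and both passed without tumour-free replicate 3 (0.00758 and 0.0258, with ranges of 0.00758 to 0.413 and 0.0258 to 0.413). Other acute-phase genes called lower numbered 0, 3 and 1 without tumour-free replicates 1, 2 and 3, and 0, 0 and 0 without tumour-bearing replicates 1, 2 and 3, and higher, in the same order, 0, 0, 4, 0, 0 and 0. With *Id3* deletion 1 of 11 fell, *Il1rn* (−1.17, adjusted p 0.000676), and 2 rose, *Cp* by 0.96 among them (median 0.00). Other acute-phase genes called higher numbered 2, 2 and 2 without *Id3* f/f replicates 1, 2 and 3, and 0 and 0 without *Clec4f* cre*Id3* f/f replicates 1 and 2.

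Among 19 genes of interleukin 6 and interleukin 1 signalling, 1 rose in TIM4+CD206+ KCs, *Osm* by 2.38 (adjusted p 0.0075), with a median of −0.23. *Socs3* differed by 1.84 (0.129) and passed with the block (0.00258) or without tumour-free replicate 2 (0.0341), with a range of 0.00258 to 0.329. Signalling genes called higher numbered 1, 2 and 1 without tumour-free replicates 1, 2 and 3, and 1, 1 and 1 without tumour-bearing replicates 1, 2 and 3. In TIM4+CD206 high KCs 2 rose, *Socs3* by 2.82 (adjusted p 0.0193) and *Osm* by 2.30 (adjusted p 0.0158), with a median of 0.30. Both lost their calls without tumour-free replicate 1 (0.0872 and 0.0795) or tumour-bearing replicates 1 (0.0834 and 0.0726), 2 (0.0871 and 0.0796) or 3 (0.0612 and 0.0556), with ranges of 0.00145 to 0.0872 and 0.0012 to 0.0796. Signalling genes called lower numbered 0, 3 and 0 without tumour-free replicates 1, 2 and 3, and 0, 0 and 0 without tumour-bearing replicates 1, 2 and 3, and higher, in the same order, 0, 4, 2, 0, 0 and 0. In the *Id3* comparison 1 of 18 fell, *Il1b* (−0.64, adjusted p 0.00618), with a median of 0.03. The call was lost without *Clec4f* cre*Id3* f/f replicates 1 (0.111) or 2 (0.156), range 5.52e-08 to 0.156. *Nfkbia* differed by −0.35 (0.0612), and passed without *Id3* f/f replicate 3 (0.00143), with the stricter filter (0.0437) or with median centring (0.0476), range 3.32e-05 to 0.392. Signalling genes called lower numbered 1, 1 and 3 without *Id3* f/f replicates 1, 2 and 3, and 0 and 0 without *Clec4f* cre*Id3* f/f replicates 1 and 2, and higher, in the same order, 0, 0, 1, 0 and 0.

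Of 12 hepatocyte transcription factor genes tested in TIM4+CD206+ KCs, limma called none, with 2 at an unadjusted p under 0.05 (median −0.10). *Tcf7l2* differed by −0.90 (0.0551; block 0.0127, without tumour-free replicate 3 0.0413, range 0.0127 to 0.191) and *Foxa3* by −0.58 (0.498). Transcription factor genes called lower numbered 0, 0 and 1 without tumour-free replicates 1, 2 and 3, and 0, 0 and 0 without tumour-bearing replicates 1, 2 and 3. In TIM4+CD206 high KCs 1 of 15 fell and 5 rose (median −0.22), among them *Foxa2* by 2.09 (adjusted p 0.0374). The call of *Foxa2* was lost without tumour-free replicate 1 (0.134) or tumour-bearing replicates 1 (0.149), 2 (0.13) or 3 (0.111), with no filter (0.0577) or with the stricter filter (0.0534), range 0.00236 to 0.149. Transcription factor genes called lower numbered 0, 2 and 1 without tumour-free replicates 1, 2 and 3, and 0, 0 and 0 without tumour-bearing replicates 1, 2 and 3, and higher, in the same order, 2, 6, 4, 2, 2 and 3. With *Id3* deletion 1 of 10 rose, *Cebpa* by 0.45 (adjusted p 0.0237; median 0.10). It was not called without *Id3* f/f replicates 1 (0.08) or 2 (0.0625) or *Clec4f* cre*Id3* f/f replicates 1 (0.296) or 2 (0.214), range 0.000154 to 0.296. *Nr1h4* differed by 0.22 (0.161). Transcription factor genes called higher numbered 0, 0 and 1 without *Id3* f/f replicates 1, 2 and 3, and 0 and 0 without *Clec4f* cre*Id3* f/f replicates 1 and 2.

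Upstream sequence was taken from RefSeq for 30 of the 39 members (20 carrier and coagulation, 10 acute-phase). It covered the 250 bases before the transcript start on build GRCm38.p6 and was searched on both strands. The other 9 members were not searched, and a missing RefSeq match was not shown to be the reason for each. The member counts below leave these 9 out. A match describes sequence only and shows no binding. The C/EBP core, written TTGCNNAA where N is any base, occurred in any promoter of 9 of 20 carrier and coagulation and 7 of 10 acute-phase genes, against 10.8% of 27025 genes. The HNF1 half-site GTTAAT occurred in 6 and 2, against 7.49%. The forkhead motif TGTTTNC occurred in 12 and 3, against 19.9%. The STAT3 motif TTCCNGGAA occurred in those of *Agt* and *Fga*, against 1.09%. *Saa1* (chr7:46742981-46743230, minus strand) and *Saa2* (chr7:46751583-46751832, plus strand), 94.8% identical there, each hold 1 C/EBP core, whose first base lies 182 and 183 bases before the start. *Orm2* (chr4:63362199-63362448, plus strand) holds 1 at 120 bases, and *Alb* (chr5:90460620-90460869, plus strand) 1 HNF1 half-site at 32 bases. *Alb* also holds 1 C/EBP core at 94 bases and 1 forkhead motif at 128 bases, which are not marked. Capitals mark the C/EBP core of *Saa1*, *Saa2* and *Orm2* and the HNF1 half-site of *Alb*.
Saa1: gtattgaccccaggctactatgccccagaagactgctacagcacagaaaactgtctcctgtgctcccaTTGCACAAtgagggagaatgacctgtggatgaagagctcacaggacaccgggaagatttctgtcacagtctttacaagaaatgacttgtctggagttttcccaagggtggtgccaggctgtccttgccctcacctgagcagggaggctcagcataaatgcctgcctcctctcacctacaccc
Saa2: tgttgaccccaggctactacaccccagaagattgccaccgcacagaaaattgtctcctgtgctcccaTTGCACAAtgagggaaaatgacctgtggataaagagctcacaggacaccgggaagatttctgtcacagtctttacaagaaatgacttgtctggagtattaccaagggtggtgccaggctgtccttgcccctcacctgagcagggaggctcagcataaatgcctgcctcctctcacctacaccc
Orm2: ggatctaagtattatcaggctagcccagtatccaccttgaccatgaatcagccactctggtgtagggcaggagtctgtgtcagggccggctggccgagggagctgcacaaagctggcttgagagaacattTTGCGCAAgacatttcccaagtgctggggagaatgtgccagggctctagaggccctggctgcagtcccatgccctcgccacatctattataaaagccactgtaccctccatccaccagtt
Alb: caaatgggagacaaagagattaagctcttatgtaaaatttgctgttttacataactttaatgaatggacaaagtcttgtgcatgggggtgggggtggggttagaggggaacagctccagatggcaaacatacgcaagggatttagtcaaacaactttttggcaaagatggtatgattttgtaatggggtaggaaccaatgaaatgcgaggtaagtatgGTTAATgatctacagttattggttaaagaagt

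Some members share exact 100-base stretches with other genes, so that reads from them are uncertain. The share of a member's stretches found elsewhere was 53.2% for *Trf* (with *Gm20425*), 14.8% for *Serpina1b*, and 8.96% for *Saa1* and 8.63% for *Saa2* (with each other). It was 6.95% for *Orm1* and for *Orm2* (with each other), 4.93% for *Kng1* (with *Kng2*) and 4.85% for *Serpina3k* (with *Serpina3m*).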

How the data were processed

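RNA-seq values of sorted mouse KCs were used from 3 tables, one for each KC subset with and without tumour and one for *Id3* deletion. Per the labels, 100-base paired reads were aligned to mm10 with STAR 2.7.10a and counted with HTSeq, and DESeq2 was used. The authors' methods name GRCm39 or mm10 without saying which files used which. The deposited values are log2 values with the features of a regularised log transformation, although they are named TPM and counts, which the values contradict. Depth per sample and counts cannot be recovered from them.

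Genes at or above log2 of 10 in as many samples as the smaller group were tested within each table with limma 3.58.1 (R 4.3.3, mean-variance trend, two-sided), with Benjamini-Hochberg adjustment over all tested genes and a threshold of 0.05. No test was made across tables. The fit was tested on simulated data. Percentages of all genes whose groups do not overlap come from the same tested genes. Members and lists were chosen with earlier results of these data known. The 39 members are all accounted for. Sample values are given for every member with an adjusted p under 0.05 and for the 2 members of each group with the highest mean over control samples in each table, and a change in each comparison for each acute-phase member. Of the lists of other plasma protein, other acute-phase, signalling, transcription factor and cell-type marker genes, counts and the 2 largest absolute changes are given.

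Alternatives were no filter and a stricter filter on low values, replicate number as a block, no mean-variance trend, median centring, quantile normalisation, and leaving out each sample. In TIM4+CD206+ KCs, samples with the same number correlated at 0.35, 0.56 and 0.15 after removal of group means, all above 0.1. Of the 3 tumour-bearing samples, 2 correlated best with the control of their own number. The labels state no pairing. The main fit used no block, and the block is given beside it as an alternative. Levels per kilobase use union exon lengths of GENCODE vM21 on GRCm38. Promoters came from RefSeq.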

Additional observations from a re-analysis of the deposited data

How the results depend on the processing

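In TIM4+CD206+ KCs, the block called 1026 genes and 29 members, and leaving out single samples gave 231 to 1022 genes and 4 to 22 members. Without single samples, the changes that crossed 0 ran from −0.69 to 0.14 for *Hpx*. Of the values of members under the alternatives, 374 kept direction and side of the threshold, 20 passed it, 60 no longer did and 1 changed sign.

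In TIM4+CD206 high KCs, the stricter filter called 600 genes, and leaving out single samples gave 579 to 3634 genes and 5 to 21 members. The change of opposite sign was −0.10 for *Orm1* with median centring and −0.14 for *Orm1* with quantile normalisation. Without single samples, changes that crossed 0 ran from −0.68 to 0.29 for *Hpx*, −0.42 to 0.32 for *Itih3*, −0.15 to 0.32 for *Orm1*, −1.10 to 0.60 for *Rbp4*, −1.12 to 1.22 for *Saa3* and −0.24 to 0.0100 for *Trf*. Of the values of members, 398 kept direction and side, 17 passed, 41 no longer did and 12 changed sign.

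In the *Id3* comparison, no filter called 477 genes, the block 2089 genes and 3 members, and leaving out single samples 17 to 1850 genes and 0 to 3 members. With the block, changes of opposite sign were 0.13 for *Ambp*, 0.0792 for *Ahsg*, −0.0119 for *Serpinc1*, −0.0093 for *Plg*, 0.0698 for *Hrg* and −0.0142 for *C8a*. Because the block leaves the unpaired *Id3* f/f replicate 3 without weight, these equal the changes without that sample. With median centring, they were −0.0106 for *Apoa2*, −0.0013 for *Apoc3*, −0.0015 for *Serpinc1*, −0.0169 for *Proc*, −0.0086 for *C8a* and −0.0132 for *Saa2*, and with quantile normalisation −0.0086 for *Proc*. Without single samples, the ranges were −0.18 to 0.0792 for *Ahsg*, −0.0746 to 0.13 for *Ambp*, −0.23 to 0.27 for *Apoa2*, −0.11 to 0.17 for *Apoc3*, −0.0416 to 0.12 for *Apoh*, −0.0142 to 0.0573 for *C8a*, −0.0637 to 0.21 for *Hp*, −0.35 to 0.0512 for *Hpx*, −0.11 to 0.0698 for *Hrg*, −0.15 to 0.0158 for *Itih3*, −0.25 to 0.0478 for *Itih4*, −0.18 to 0.11 for *Kng1*, −0.0093 to 0.11 for *Plg*, −0.0499 to 0.0720 for *Proc*, −0.11 to 0.16 for *Serpinc1*, −0.30 to 0.0164 for *Ttr* and −0.0872 to 0.16 for *Vtn*. Of the values of members, 374 kept direction and side, 6 passed, 0 no longer did and 42 changed sign.

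With samples left out, fewer samples were tested and with the filters a different number of genes. For the other changes the cause was not tested. Samples sharing a number correlated at −0.05, −0.13 and −0.05 in TIM4+CD206 high KCs and at −0.07 and −0.10 in the *Id3* table, so that the block there shares only a number. It called 909 genes in TIM4+CD206 high KCs, with 15 members lower and 1 higher. *Ahsg* (0.0389), *Plg* (0.0433), *Vtn* (0.0419) and *F7* (0.0411) passed with it, *C8a* (0.0537), *C9* (0.057) and *Colec11* (0.0514) did not, and in the *Id3* table *Alb* (3.12e-05), *Serpina3k* (0.00352), *Fga* (0.0403), *Nfkbia* (3.32e-05) and *Ecm1* (0.0124) passed. In the *Id3* table, the lowest adjusted p printed for *Alb*, *Serpina3k*, *Fga*, *Nfkbia* and *Ecm1* is the one from the block. With 2 numbered pairs there, the p-values of the block rest on very little residual spread. Each range of adjusted p printed for that table includes the block, and its low end carries this limit. The block changed no other call of a named gene in these tables. Depth is not given with the values, so what it limits cannot be stated.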

Other observations

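Marker lists of other cell types were followed in the same comparisons, with TIM4+CD206+ first, TIM4+CD206 high next and *Id3* deletion last. Their part in the results was not tested. Counts without single samples run through control replicates 1, 2 and 3 and then the replicates of the other group.

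KC markers had median changes of −0.44, −0.34 and 0.01: 3 of 17 fell and 0 rose, limma called none of 17 (5 at an unadjusted p under 0.05), and 6 of 17 fell and 4 rose. KC markers were led, for their length, by *C1qb*, and none was at 0 throughout. Summed, the KC markers reached 4015009, 2845201 and 3228134 in control and 2384569, 2226944 and 2360789 in tumour-bearing samples, then 1663788, 1615611 and 2031035 in control and 1528858, 1365532 and 1439695 in tumour-bearing samples, then 1715879, 1696005 and 1689221 in control and 1585477 and 1560464 in *Clec4f* cre*Id3* f/f samples. *Csf1r* fell by 0.94 (adjusted p 0.0344, not called without tumour-free replicates 1 (0.0774) or 3 (0.0869), or without tumour-bearing replicates 1 (0.158), 2 (0.17) or 3 (0.157), or with median centring (0.0914), range 0.00365 to 0.17) and *Adgre1* fell by 0.93 (adjusted p 0.028, not called without tumour-free replicates 1 (0.0797) or 3 (0.0924), or without tumour-bearing replicates 1 (0.0998), 2 (0.138) or 3 (0.135), or without the mean-variance trend (0.05), or with median centring (0.0636), range 0.00404 to 0.138) for TIM4+CD206+ samples. *Marco* differed by 1.25 (adjusted p 0.163, called without tumour-free replicate 3 (0.0304), range 0.0304 to 0.434) and *Adgre1* differed by −0.71 (adjusted p 0.144, called without tumour-free replicate 3 (0.0367), range 0.0367 to 0.408) for TIM4+CD206 high samples. *Id3* fell by 2.80 (adjusted p 1.4e-06) and *Clec4f* fell by 1.52 (adjusted p 1.8e-06) with *Id3* deletion. Calls among the KC markers without single samples were 0, 10, 0, 0, 0 and 0 in TIM4+CD206+ KCs, then 0, 2, 3, 0, 0 and 0 in TIM4+CD206 high KCs, then 7, 9, 13, 2 and 2 with *Id3* deletion.

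Epithelial and tumour cell markers had median changes of 3.64, 4.79 and −0.03: 0 of 17 fell and 14 rose, 0 of 17 fell and 17 rose, and limma called none of 6 (0 at an unadjusted p under 0.05). Epithelial and tumour cell markers were led, for their length, by *Krt8*, *Krt8* and *Krt18*, and genes at 0 throughout in the *Id3* table included *Cldn18*, *Cldn4*, *Elf3*, *Gkn1* and *Krt20*. Summed, the epithelial and tumour cell markers reached 2749, 2116 and 3945 in control and 50832, 44056 and 44179 in tumour-bearing samples, then 2494, 3117 and 2327 in control and 64208, 64799 and 61113 in tumour-bearing samples, then 426, 459 and 448 in control and 422 and 462 in *Clec4f* cre*Id3* f/f samples. *Tff1* rose by 5.72 (adjusted p 4.27e-05) and *Gkn1* rose by 5.37 (adjusted p 4.27e-05) for TIM4+CD206+ samples. *Gkn1* rose by 6.21 (adjusted p 3.65e-05) and *Krt20* rose by 6.16 (adjusted p 3.65e-05) for TIM4+CD206 high samples. *Krt18* differed by −0.15 (adjusted p 0.385) and *Krt8* differed by 0.15 (adjusted p 0.376) with *Id3* deletion.

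Neutrophil markers had median changes of 1.73, 1.73 and −0.02: 0 of 14 fell and 5 rose (0 and 9 with the block), 0 of 13 fell and 5 rose, and 1 of 9 fell and 0 rose. Neutrophil markers were led, for their length, by *S100a9*, *S100a9* and *Csf3r*, and *Ly6g* and *Stfa1* were at 0 throughout in the *Id3* table. Summed, the neutrophil markers reached 17397, 12424 and 21415 in control and 42722, 40935 and 39443 in tumour-bearing samples, then 10280, 11934 and 14784 in control and 32998, 30104 and 22712 in tumour-bearing samples, then 2113, 2128 and 2284 in control and 1946 and 1700 in *Clec4f* cre*Id3* f/f samples. *S100a8* rose by 2.48 (adjusted p 0.00269) and *S100a9* rose by 2.34 (adjusted p 0.00429) for TIM4+CD206+ samples. *Cxcr2* rose by 2.40 (adjusted p 0.00283) and *Ngp* differed by 2.35 (adjusted p 0.254, called without tumour-free replicate 3 (0.0356), range 0.0356 to 0.555) for TIM4+CD206 high samples. *Mmp9* fell by 0.49 (adjusted p 0.0237, not called without *Id3* f/f replicates 1 (0.087) or 2 (0.0515), or without *Clec4f* cre*Id3* f/f replicates 1 (0.163) or 2 (0.257), range 0.000454 to 0.257) and *Csf3r* differed by −0.16 (adjusted p 0.461) with *Id3* deletion. Calls among the neutrophil markers without single samples were 4, 5, 7, 4, 3 and 3 in TIM4+CD206+ KCs, then 2, 7, 9, 1, 1 and 1 in TIM4+CD206 high KCs, then 0, 0, 1, 0 and 0 with *Id3* deletion.

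Monocyte markers had median changes of 1.54, 1.23 and −0.02: 0 of 11 fell and 4 rose, 0 of 11 fell and 4 rose, and 2 of 9 fell and 0 rose. Monocyte markers were led, for their length, by *Plac8*, and *Vcan* was at 0 throughout in the *Id3* table. Summed, the monocyte markers reached 37916, 14863 and 27245 in control and 51249, 43815 and 48891 in tumour-bearing samples, then 24915, 33749 and 25204 in control and 45792, 42267 and 47594 in tumour-bearing samples, then 14234, 12849 and 15537 in control and 7374 and 7935 in *Clec4f* cre*Id3* f/f samples. *Chil3* rose by 3.10 (adjusted p 0.000869) and *Ccr2* rose by 2.57 (adjusted p 0.00816, not called without tumour-bearing replicate 1 (0.0508), range 0.000544 to 0.0508) for TIM4+CD206+ samples. *Chil3* rose by 2.68 (adjusted p 0.0158, not called without tumour-bearing replicates 1 (0.0757), 2 (0.0693) or 3 (0.0531), range 0.0102 to 0.0757) and *Vcan* rose by 2.59 (adjusted p 0.00851) for TIM4+CD206 high samples. *Plac8* fell by 0.95 (adjusted p 0.00151, not called without *Clec4f* cre*Id3* f/f replicate 1 (0.0822), range 2.09e-19 to 0.0822) and *Ms4a4c* fell by 0.86 (adjusted p 0.0149, not called without *Clec4f* cre*Id3* f/f replicates 1 (0.201) or 2 (0.171), range 1.2e-07 to 0.201) with *Id3* deletion. Calls among the monocyte markers without single samples were 4, 5, 5, 1, 1 and 3 in TIM4+CD206 high KCs, then 2, 2, 3, 0 and 1 with *Id3* deletion.

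Endothelial markers had median changes of −0.63, −0.81 and 0.02: limma called none of 15 (4 at an unadjusted p under 0.05) (2 and 1 with the block), 3 of 15 fell and 0 rose, and 2 of 15 fell and 1 rose. *Fcgr2b* differed by 1.42 (adjusted p 0.115, called without tumour-free replicate 2 (0.0155), or with the replicate block (0.0133), range 0.0133 to 0.316) and *Egfl7* differed by −1.23 (adjusted p 0.397, called without tumour-free replicate 2 (0.0283), range 0.0283 to 0.734) for TIM4+CD206+ samples. *Wnt2* differed by −1.54 (adjusted p 0.0608, called without tumour-free replicate 3 (0.00221), or with median centring (0.0148), or with quantile normalisation (0.034), range 0.00221 to 0.223) and *Oit3* fell by 1.25 (adjusted p 0.0311, not called without tumour-free replicate 1 (0.121), or without tumour-bearing replicates 1 (0.148), 2 (0.106) or 3 (0.101), range 0.00307 to 0.148) for TIM4+CD206 high samples. *Clec4g* fell by 0.80 (adjusted p 0.0179, not called without *Clec4f* cre*Id3* f/f replicates 1 (0.244) or 2 (0.17), or without the mean-variance trend (0.0505), range 2.22e-07 to 0.244) and *Fcgr2b* fell by 0.73 (adjusted p 0.0396, not called without *Id3* f/f replicates 1 (0.0504) or 2 (0.0805), or without *Clec4f* cre*Id3* f/f replicates 1 (0.301) or 2 (0.25), or with no filter on low values (0.0725), or without the mean-variance trend (0.0888), range 7.22e-05 to 0.301) with *Id3* deletion. Calls among the endothelial markers without single samples were 0, 6, 0, 0, 0 and 0 in TIM4+CD206+ KCs, then 0, 11, 4, 0, 0 and 0 in TIM4+CD206 high KCs, then 1, 1, 4, 0 and 0 with *Id3* deletion.

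Stellate cell markers had median changes of −0.13, −0.32 and 0.01: limma called none of 13 (2 at an unadjusted p under 0.05), 3 of 13 fell and 0 rose, and limma called none of 14 (1 at an unadjusted p under 0.05). *Pdgfrb* differed by −0.81 (adjusted p 0.291) and *Colec11* differed by −0.77 (adjusted p 0.169, called without tumour-free replicate 2 (0.048), range 0.048 to 0.386) for TIM4+CD206+ samples. *Colec11* fell by 1.82 (adjusted p 0.029, not called without tumour-free replicate 1 (0.0697), or without tumour-bearing replicates 1 (0.127), 2 (0.112) or 3 (0.0584), or with the replicate block (0.0514), range 0.00967 to 0.127) and *Lrat* fell by 1.76 (adjusted p 0.0154, not called without tumour-free replicate 1 (0.0747), or without tumour-bearing replicates 1 (0.0844) or 2 (0.0838), range 0.00442 to 0.0844) for TIM4+CD206 high samples. *Dcn* differed by −0.32 (adjusted p 0.238) and *Ecm1* differed by −0.31 (adjusted p 0.0666, called without *Id3* f/f replicate 3 (0.0215), or with the stricter filter (0.0482), or with median centring (0.0494), range 0.0124 to 0.472) with *Id3* deletion. Calls among the stellate cell markers without single samples were 0, 2, 0, 0, 0 and 0 in TIM4+CD206+ KCs, then 1, 5, 3, 1, 1 and 2 in TIM4+CD206 high KCs, then 0, 0, 1, 0 and 0 with *Id3* deletion.

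B cell markers had median changes of −1.03, −0.78 and 0.04: 4 of 6 fell and 0 rose, 3 of 8 fell and 0 rose, and limma called none of 6 (0 at an unadjusted p under 0.05). *Cd79a* fell by 1.18 (adjusted p 0.00687) for TIM4+CD206+ samples. *Fcer2a* fell by 1.21 (adjusted p 0.017, not called without tumour-free replicate 1 (0.0588), or without tumour-bearing replicates 1 (0.113) or 2 (0.107), range 0.00967 to 0.113) and *Cd79a* fell by 1.08 (adjusted p 0.0115, not called without tumour-bearing replicates 1 (0.0891), 2 (0.0556) or 3 (0.0772), range 0.00604 to 0.0891) for TIM4+CD206 high samples. *Cd79a* differed by −0.15 (adjusted p 0.416) and *Cd79b* differed by 0.14 (adjusted p 0.483) with *Id3* deletion. Calls among the B cell markers without single samples were 1, 4, 1, 1, 1 and 2 in TIM4+CD206+ KCs, then 2, 5, 4, 0, 0 and 1 in TIM4+CD206 high KCs.

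T and NK cell markers had median changes of −0.55, −0.70 and 0.07: limma called none of 13 (4 at an unadjusted p under 0.05), limma called none of 13 (7 at an unadjusted p under 0.05), and limma called none of 12 (0 at an unadjusted p under 0.05). *Cd3e* differed by −1.0 (adjusted p 0.131) and *Prf1* differed by −0.84 (adjusted p 0.51) for TIM4+CD206+ samples. *Gzmb* differed by −0.84 (adjusted p 0.242, called without tumour-free replicate 2 (0.0217), range 0.0217 to 0.59) and *Cd3e* differed by −0.73 (adjusted p 0.0661, called without tumour-free replicate 2 (0.0315), or without the mean-variance trend (0.0402), or with quantile normalisation (0.0321), range 0.0315 to 0.3) for TIM4+CD206 high samples. *Cd4* differed by 0.23 (adjusted p 0.232) and *Klrb1c* differed by 0.16 (adjusted p 0.26) with *Id3* deletion. Calls among the T and NK cell markers without single samples were 0, 3, 0, 0, 0 and 0 in TIM4+CD206+ KCs, then 0, 5, 2, 0, 0 and 0 in TIM4+CD206 high KCs.

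Erythroid and platelet markers had median changes of 0.80, 0.48 and −0.73: limma called none of 10 (2 at an unadjusted p under 0.05) (0 and 4 with the block), limma called none of 11 (1 at an unadjusted p under 0.05), and 5 of 11 fell and 0 rose. *Hbb-bs* differed by 0.96 (adjusted p 0.338, called with the replicate block (0.024), range 0.024 to 0.691) and *Hbb-bt* differed by 0.88 (adjusted p 0.357, called with the replicate block (0.0262), range 0.0262 to 0.719) for TIM4+CD206+ samples. *Itga2b* differed by 0.97 (adjusted p 0.232) for TIM4+CD206 high samples. *Hba-a1* fell by 1.44 (adjusted p 0.0384, not called without *Id3* f/f replicates 1 (0.126) or 2 (0.116), or without *Clec4f* cre*Id3* f/f replicates 1 (0.368) or 2 (0.187), or with no filter on low values (0.0725), or without the mean-variance trend (0.103), or with quantile normalisation (0.0516), range 1.25e-91 to 0.368) and *Hba-a2* fell by 1.44 (adjusted p 0.0383, not called without *Id3* f/f replicates 1 (0.125) or 2 (0.116), or without *Clec4f* cre*Id3* f/f replicates 1 (0.367) or 2 (0.187), or with no filter on low values (0.0725), or without the mean-variance trend (0.103), or with quantile normalisation (0.0514), range 2.23e-91 to 0.367) with *Id3* deletion. Calls among the erythroid and platelet markers without single samples were 1, 1, 6, 0 and 0 with *Id3* deletion.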
